A study of Homo sapiens with 12 samples.

Results

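The genes described here are antiviral effectors that interferon switches on, measured in LNCaP, a prostate cancer cell line with luminal and androgen-responsive features. They were taken from a list of 48 gene symbols and matched to the array annotation by symbol, with 1 probe set per gene, the one with the highest mean over the 12 arrays. The annotation named 46 of them among 11963 genes, and 38 were bright enough to be tested among 6821. IFI30 and TDRD7 were not analysed here. LNCaP cells were transfected with 1 of 3 microRNAs, namely miR-130a, miR-203 or miR-205, and cells given a scramble microRNA were the control. Each of the 4 groups had 3 arrays of total RNA labelled with biotin, and the arrays of a group are called biological replicates in the labels. All 4 groups had been transfected, so no untreated cells enter any comparison. The labels state no amount of microRNA, no time after transfection and no microRNA arm. Each comparison bears on how the antiviral transcripts differ when 1 of the microRNAs is overexpressed in cells of a single line.

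Interferon genes are switched on when receptors inside a cell, such as RIGI and IFIH1, bind foreign or unusual RNA and activate the transcription factors IRF3 and NF-kappaB. Secreted interferon then binds its receptor, and the kinases JAK1 and TYK2 activate a transcription factor complex with IRF9 that binds the interferon-stimulated response element in the promoters of effector genes. Some effectors, among them IFIT1, IFIT2, IFIT3, OASL, RSAD2 and ISG15, can also be induced by IRF3 without secreted interferon. LNCaP is known for a poor response to added interferon and for little JAK1.

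Values are log2 expression values as deposited, differences are the first group minus the second on the same scale with the standard error (SE) of a limma fit over 3 arrays per group, and a gene was called when its Benjamini-Hochberg adjusted p over all 6821 tested genes was under 0.05. The lowest value in the table was 2.36 and the array medians lay between 2.76 and 2.78. A gene was tested if it lay above the array median on at least 3 arrays. Where a gene lay above that median on no array of a group, it is called dim there and its fold is given as a bound. Levels of different genes come from different probes and are not set against each other. In bulk RNA, fewer cells with a transcript and less of it per cell cannot be told apart.

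Across tested genes, arrays of the same group correlated with r between 0.9916 and 0.9973 and arrays of different groups between 0.964 and 0.9857. Of 11 luminal prostate markers 8 were named, and all 8 lay above the array median on all 12 arrays. The mean of those 8 markers on an array was 8.15 to 8.19 with miR-130a, 7.67 to 7.77 with miR-203, 8.23 to 8.31 with miR-205 and 8.11 to 8.24 with scramble. Of 7 leukocyte markers 5 were named (PTPRC, CD14, CD3E, CD8A and LYZ), and 0 of them lay above the median on any array, so the defining leukocyte transcripts were at or near the lowest value in every group. None of the 3 named basal markers (KRT5, KRT14 and CD44) lay above it either. Of 7 fibroblast and endothelial markers, 3 lay above the median on some array. The 3' minus 5' difference of the ACTB control probes, a measure of RNA integrity, was 2.18 to 2.33 with miR-130a, 2.18 to 2.54 with miR-203, 2.21 to 2.46 with miR-205 and 2.30 to 2.66 with scramble. The same log2 difference of the GAPDH control probes was 0.72 to 0.74 with miR-130a and 0.74 to 0.80 with miR-203. It was 0.60 to 0.73 with miR-205 and 0.56 to 0.90 with scramble. The part of RNA integrity in the differences was not tested.

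Most of the antiviral genes were higher with miR-130a than with scramble, fewer were higher with miR-203, and with miR-205 few were called in either direction. In miR-130a against scramble, 34 of the 38 tested members were called higher and 0 lower, where 12% of all tested genes were called higher and 11.6% lower. In miR-203 against scramble, 23 were higher and 0 lower, where 17.3% of all tested genes were called higher and 18.9% lower. In miR-205 against scramble, 4 were higher and 3 lower, beside 11.3% and 14.8% of all tested genes. A member that is dim in most groups could be tested only because it was bright in another, so the counts were taken again over the 24 members above the array median on all 12 arrays. Of those 24, 22 were higher with miR-130a, 16 were higher with miR-203, and with miR-205 4 were higher and 2 lower. The share called among all genes above the median on all 12 arrays was not counted, so these counts have no matched background. PML was the 1 tested member that did not pass the moderated F-test over the 4 groups.

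Over the 46 named members, the median difference was 1.21 for miR-130a, 0.40 for miR-203 and 0.00 for miR-205 against scramble, and the medians of all tested genes were -0.01, 0.01 and -0.00 in the same order. The members also reached the top of the whole table. Among the 20 largest increases of all tested genes against scramble, 12 were members with miR-130a, 11 with miR-203 and 0 with miR-205. None of the 20 largest decreases in any of these comparisons was a member. The 3 comparisons share the scramble arrays, so their values are not independent of each other. The number of members visible above the array median on all 3 arrays was 38 with miR-130a and 31 with miR-203, and it was 25 with miR-205 and 25 with scramble.

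**Figure D1:**
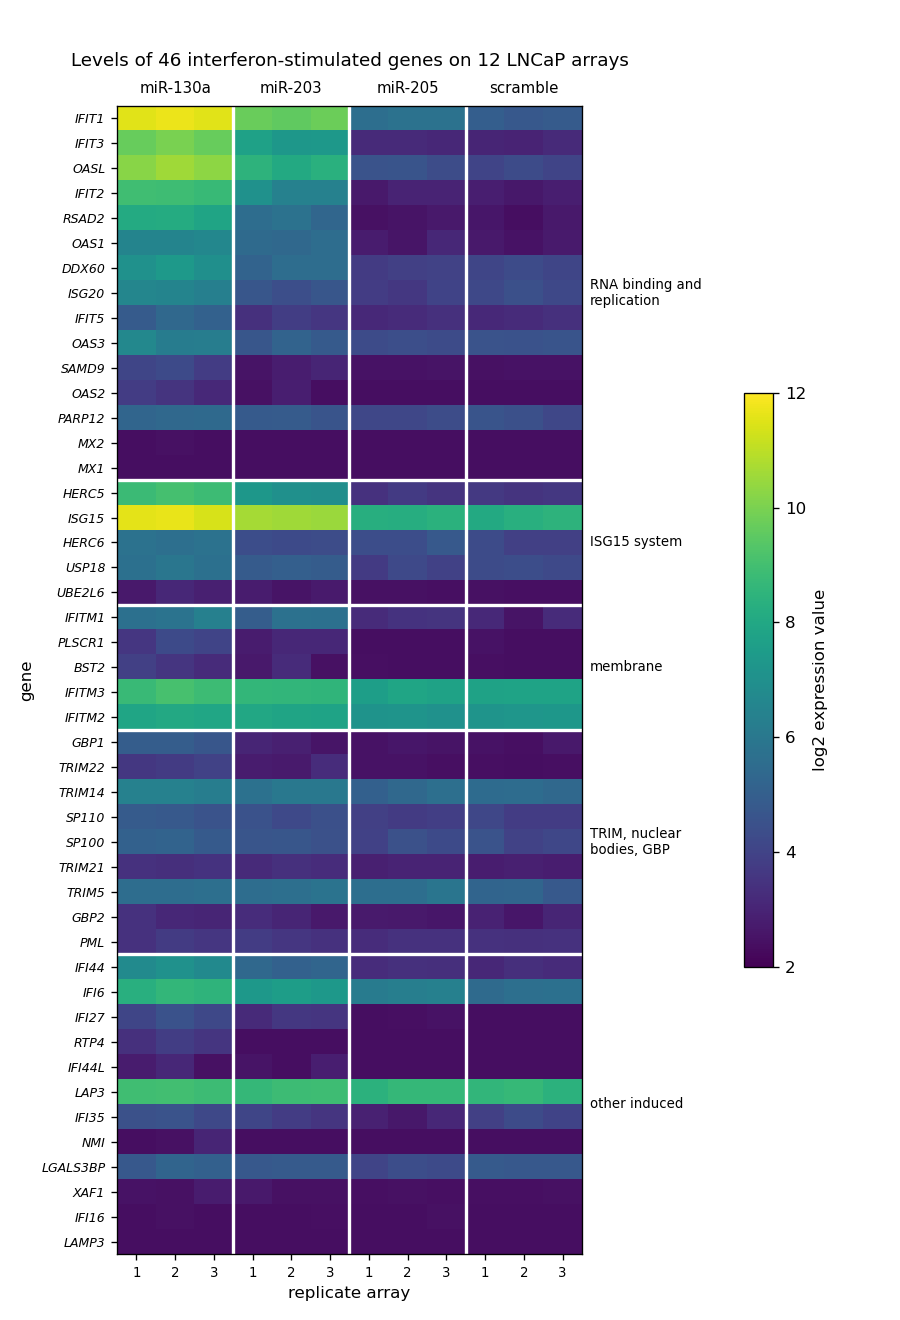
Log2 expression values of the 46 named members (lines, grouped by role) on the 12 arrays (columns 1 to 3 within each group), on a colour scale from 2 to 12. The miR-130a columns are brightest, the miR-203 columns are intermediate for the upper genes of each block, and the miR-205 and scramble columns differ little in colour for most genes, with MX1, IFI16 and LAMP3 dark throughout.

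The core of the interferon-stimulated response element was searched in the members' promoters, and 6 promoters are shown so that the differences below can be read beside the sequence. RefSeq promoters of assembly GRCh38.p14, reaching from 250 bases before to 50 bases after each gene's start, were found for 38 of the 48 listed members, with 50 promoters in all. The motif was GAAA, any 2 bases, and GAAA again, on either strand, with overlapping matches counted. It was present in 33 of the 50 member promoters (66.0%) and in 1255 of all 35116 promoters of the table (3.57%). By gene, 28 of 38 members (73.7%) had it, against 1195 of 27305 symbols (4.38%). The members were listed as genes that interferon switches on, so these shares describe the list and not the arrays. The first 4 sequences belong to the motif-bearing members with the largest miR-130a minus scramble difference, and the last 2 to MX1 and IFI16, which lay above the array median on no array. Those 2 were picked as members without any call that had the smallest such difference, MX1 with the motif and IFI16 without. All 6 are on the + strand, at chr10:89392373-89392672 for IFIT1, chr10:89327747-89328046 for IFIT3, chr2:6877527-6877826 for RSAD2, chr4:88456869-88457168 for HERC5, chr21:41420308-41420607 for MX1 and chr1:159008741-159009040 for IFI16. Capitals mark the motif, which reads TTTC, 2 bases, TTTC where it lies on the other strand.
IFIT1: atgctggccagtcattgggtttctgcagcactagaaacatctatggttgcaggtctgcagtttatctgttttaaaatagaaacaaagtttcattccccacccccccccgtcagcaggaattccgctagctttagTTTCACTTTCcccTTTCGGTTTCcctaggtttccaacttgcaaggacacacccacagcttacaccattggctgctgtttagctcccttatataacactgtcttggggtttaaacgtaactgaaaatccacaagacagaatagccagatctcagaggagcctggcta
IFIT3: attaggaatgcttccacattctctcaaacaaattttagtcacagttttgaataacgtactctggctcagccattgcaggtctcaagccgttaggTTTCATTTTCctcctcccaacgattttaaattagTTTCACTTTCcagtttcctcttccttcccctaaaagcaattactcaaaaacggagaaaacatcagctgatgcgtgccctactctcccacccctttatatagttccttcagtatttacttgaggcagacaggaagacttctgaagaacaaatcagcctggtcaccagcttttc
RSAD2: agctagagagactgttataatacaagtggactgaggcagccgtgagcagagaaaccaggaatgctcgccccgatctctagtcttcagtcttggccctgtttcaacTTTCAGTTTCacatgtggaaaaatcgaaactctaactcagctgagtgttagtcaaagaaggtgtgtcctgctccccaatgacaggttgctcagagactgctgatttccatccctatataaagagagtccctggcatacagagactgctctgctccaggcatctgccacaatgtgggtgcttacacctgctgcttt
HERC5: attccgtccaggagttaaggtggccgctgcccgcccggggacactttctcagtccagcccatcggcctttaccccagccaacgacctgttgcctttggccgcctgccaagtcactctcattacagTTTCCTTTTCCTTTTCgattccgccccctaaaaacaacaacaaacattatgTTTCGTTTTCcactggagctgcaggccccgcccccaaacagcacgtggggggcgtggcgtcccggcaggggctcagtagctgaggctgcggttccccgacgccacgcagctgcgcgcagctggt
MX1: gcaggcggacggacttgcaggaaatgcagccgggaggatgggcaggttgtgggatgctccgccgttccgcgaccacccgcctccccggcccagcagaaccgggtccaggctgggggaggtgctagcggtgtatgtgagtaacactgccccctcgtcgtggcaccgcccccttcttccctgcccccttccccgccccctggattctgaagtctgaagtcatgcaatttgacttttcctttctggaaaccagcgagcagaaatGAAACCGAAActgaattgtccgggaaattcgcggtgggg
IFI16: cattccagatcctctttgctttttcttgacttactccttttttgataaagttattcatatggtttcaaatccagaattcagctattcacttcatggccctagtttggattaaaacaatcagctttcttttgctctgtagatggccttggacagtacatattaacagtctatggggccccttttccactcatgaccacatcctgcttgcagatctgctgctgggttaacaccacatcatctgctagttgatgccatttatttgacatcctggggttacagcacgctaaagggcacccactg

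IFIT1 and IFIT3 had 2 matches each, HERC5 had 3 of which 2 overlap, and RSAD2 had 1, all before the start site. MX1 had 1 match, after the start site. IFI16 had 0 matches in the promoter shown, and RefSeq lists 2 promoters for that gene, 2 for IFIT3, 2 for RSAD2 and 3 for MX1. For a gene with several promoters, the one with the most matches is shown. MX1 carried the motif and stayed at the lowest value. It was picked for its small difference and has 1 probe set, so it cannot show how motif-bearing members behave. Among named members with a promoter in the table, the median miR-130a minus scramble difference was 1.68 for the 28 with the motif (range -0.00 to 6.73) and 0.64 for the 8 without (range 0.03 to 3.92). OAS1 and HERC6 had 0 matches and differences of 3.92 and 1.70, and they are not among the sequences shown. Members too dim to test were IFI44L, MX1 and NMI with the motif and IFI16, UBE2L6 and XAF1 without. They weigh more in the smaller set. IFIT2 and OASL, with differences of 6.07 and 6.23, had no promoter in the table and enter neither set. A match describes these letters only, and binding of any factor was not measured.

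The IFIT proteins bind viral RNA that lacks the cell's own cap modification and keep it from being translated, and IFIT1 gave the largest difference of all tested members with miR-130a and with miR-203 against scramble. IFIT1 had values of 11.54, 11.71 and 11.54 on the miR-130a arrays, 9.71, 9.55 and 9.76 on the miR-203 arrays, 5.61, 5.77 and 5.76 on the miR-205 arrays, and 4.98, 4.74 and 4.87 on the scramble arrays. The 4 groups did not overlap at any point, with miR-130a on top and scramble at the bottom. Against scramble, IFIT1 was 106-fold higher with miR-130a, 28.0-fold higher with miR-203 and 1.80-fold higher with miR-205 (adjusted p = 6.7e-15, 9.9e-13 and 2.0e-05 in the limma fit).

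IFIT3 and IFIT2, which act in a complex with IFIT1, showed the same order for the first 2 microRNAs but no call with miR-205. IFIT3 read 9.68, 9.97 and 9.66 with miR-130a, 7.74, 7.31 and 7.32 with miR-203, 3.17, 3.17 and 3.13 with miR-205, and 3.04, 2.99 and 3.17 with scramble. IFIT2 read 8.93, 8.89 and 8.72 with miR-130a, 7.08, 6.41 and 6.39 with miR-203, 2.70, 3.00 and 3.00 with miR-205, and 2.85, 2.64 and 2.86 with scramble. For both, the miR-205 arrays overlapped the scramble arrays, and the differences were 0.09 ± 0.12 and 0.11 ± 0.16 with adjusted p = 0.63 and 0.66. IFIT5, whose gene lies beside IFIT1 on chromosome 10, differed less. Its values were 4.86, 5.36 and 5.11 with miR-130a, 3.37, 3.81 and 3.60 with miR-203, 3.16, 3.25 and 3.37 with miR-205, and 3.15, 3.25 and 3.37 with scramble. Only miR-130a was called against scramble (1.85 ± 0.13), and miR-203 at 0.34 ± 0.13 had an adjusted p of 0.062. With the replicate number as a block, miR-203 passed for IFIT5 with an adjusted p of 0.018.

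The oligoadenylate synthetases make short chains of adenylate when they bind double-stranded RNA. OASL, a family member without that catalytic activity that enhances RIGI signalling, read 10.22, 10.59 and 10.30 with miR-130a, 8.48, 8.06 and 8.33 with miR-203, 4.55, 4.60 and 4.31 with miR-205, and 4.07, 4.28 and 4.07 with scramble. Its miR-205 arrays all lay above its scramble arrays, but the difference of 0.35 ± 0.13 had an adjusted p of 0.062. OAS1 read 6.51, 6.51 and 6.62 with miR-130a, 5.46, 5.39 and 5.57 with miR-203, 2.76, 2.57 and 3.12 with miR-205, and 2.68, 2.49 and 2.72 with scramble. It was dim in scramble arrays, and it was at least 13.8-fold higher with miR-130a (adjusted p = 4.4e-11) and at least 6.56-fold higher with miR-203 (adjusted p = 3.9e-09). OAS3 read 6.68, 6.21 and 6.24 with miR-130a, 4.67, 5.20 and 4.85 with miR-203, 4.27, 4.39 and 4.28 with miR-205, and 4.57, 4.52 and 4.61 with scramble. Its miR-203 arrays lay above all scramble arrays, the difference of 0.34 ± 0.14 did not pass (adjusted p = 0.068), and it was 0.51 and passed with array weights (adjusted p = 0.0090). Against miR-205, miR-203 was higher by 0.59 ± 0.14 (adjusted p = 0.0042). OAS2 was at the lowest value on all miR-205 and scramble arrays and read 3.76, 3.52 and 3.14 with miR-130a, at least 1.64-fold higher. A second OAS2 probe set was above the array median on no array. These 3 genes are neighbours on chromosome 12, and OAS3, measured in all groups, was higher by 1.81 ± 0.14 with miR-130a.

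RSAD2, or viperin, makes a chain-terminating nucleotide that stops viral polymerases. It read 8.11, 8.15 and 7.82 with miR-130a, 5.58, 5.76 and 5.30 with miR-203, 2.45, 2.51 and 2.68 with miR-205, and 2.61, 2.36 and 2.68 with scramble. It was dim in the miR-205 and scramble arrays. Against scramble it was at least 38.4-fold higher with miR-130a and at least 6.90-fold higher with miR-203. DDX60, a helicase linked to antiviral RNA sensing, read 7.07, 7.40 and 6.98 with miR-130a, 5.20, 5.56 and 5.56 with miR-203, 3.73, 3.89 and 3.96 with miR-205, and 4.10, 4.27 and 4.07 with scramble. Its miR-205 arrays lay below all its scramble arrays, and the difference of -0.29 ± 0.12 did not pass (adjusted p = 0.11).

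ISG20, an exonuclease that degrades viral RNA, separated the 3 microRNAs in a different way. It read 6.58, 6.50 and 6.30 with miR-130a, 4.69, 4.38 and 4.66 with miR-203, 3.79, 3.63 and 4.02 with miR-205, and 4.18, 4.46 and 4.18 with scramble. It was higher by 2.19 ± 0.12 with miR-130a, did not pass with miR-203 (0.31 ± 0.12, adjusted p = 0.066), and was lower with miR-205 (-0.46 ± 0.12, adjusted p = 0.014). Without miR-205 replicate 2 its miR-205 difference was -0.37 and without scramble replicate 2 it was also -0.37, with adjusted p = 0.060 and 0.062, and with no filter on dim genes the adjusted p was 0.052. SAMD9, which restricts poxviruses, was dim in scramble arrays and at least 2.42-fold higher with miR-130a. PARP12, an ADP-ribosyltransferase that limits alphavirus growth, was higher by 0.95 ± 0.12 with miR-130a and by 0.37 ± 0.12 with miR-203. The miR-203 call of PARP12 was lost without any 1 of miR-203 replicate 1, miR-203 replicate 2 and scramble replicate 3, with a difference of 0.24 without the last, and also with no filter on dim genes and with only the 6 arrays compared. MX1 and MX2, the GTPases that block incoming viruses and are standard markers of interferon exposure, were above the array median on no array. MX1 was at 2.36 on all 12 arrays, and each of the 2 genes had 1 probe set.

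ISG15 is a ubiquitin-like protein that is joined to new viral and cell proteins, with UBE2L6 as the conjugating enzyme, HERC5 as the main human ligase and USP18 as the protease that removes it and also blocks the interferon receptor. ISG15 read 11.58, 11.67 and 11.39 with miR-130a, 10.65, 10.56 and 10.48 with miR-203, 8.29, 8.23 and 8.38 with miR-205, and 8.09, 8.30 and 8.46 with scramble. It was 9.60-fold higher with miR-130a and 4.86-fold higher with miR-203, and its miR-205 arrays overlapped the scramble arrays (0.02 ± 0.10, adjusted p = 0.94). HERC5 read 8.82, 9.05 and 8.86 with miR-130a, 7.29, 7.04 and 6.94 with miR-203, 3.41, 3.71 and 3.50 with miR-205, and 3.66, 3.49 and 3.64 with scramble. The ligase gene was thus 39.7-fold higher with miR-130a and 11.2-fold higher with miR-203.

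HERC6, the neighbour of HERC5 on chromosome 4 and the main ISG15 ligase in mice, behaved differently. It read 5.76, 5.64 and 5.78 with miR-130a, 4.36, 4.23 and 4.33 with miR-203, 4.36, 4.36 and 4.78 with miR-205, and 4.28, 3.91 and 3.90 with scramble. The miR-130a arrays stood alone at the top, with a difference of 1.70 ± 0.12. The miR-203 difference did not pass (0.28 ± 0.12, adjusted p = 0.095), and the miR-205 difference was called (0.47 ± 0.12, adjusted p = 0.013). That miR-205 call was lost without miR-205 replicate 3 (0.33), and on leaving out either scramble replicate 2 or scramble replicate 3 (0.41 each), at adjusted p between 0.053 and 0.056, and with only the 6 arrays compared (0.077). USP18 read 5.71, 5.91 and 5.70 with miR-130a, 4.88, 5.04 and 4.91 with miR-203, 3.71, 4.22 and 3.95 with miR-205, and 4.30, 4.36 and 4.20 with scramble. It was higher by 1.49 ± 0.11 with miR-130a and by 0.66 ± 0.11 with miR-203, and at -0.33 ± 0.11 with miR-205 it stood at the threshold (adjusted p = 0.050, not called). With the replicate number as a block the adjusted p was 0.018. UBE2L6 was too dim to be tested, at 2.70, 3.12 and 2.88 with miR-130a, 2.76, 2.52 and 2.70 with miR-203, 2.46, 2.44 and 2.42 with miR-205, and 2.46, 2.42 and 2.43 with scramble.

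**Figure D2:**
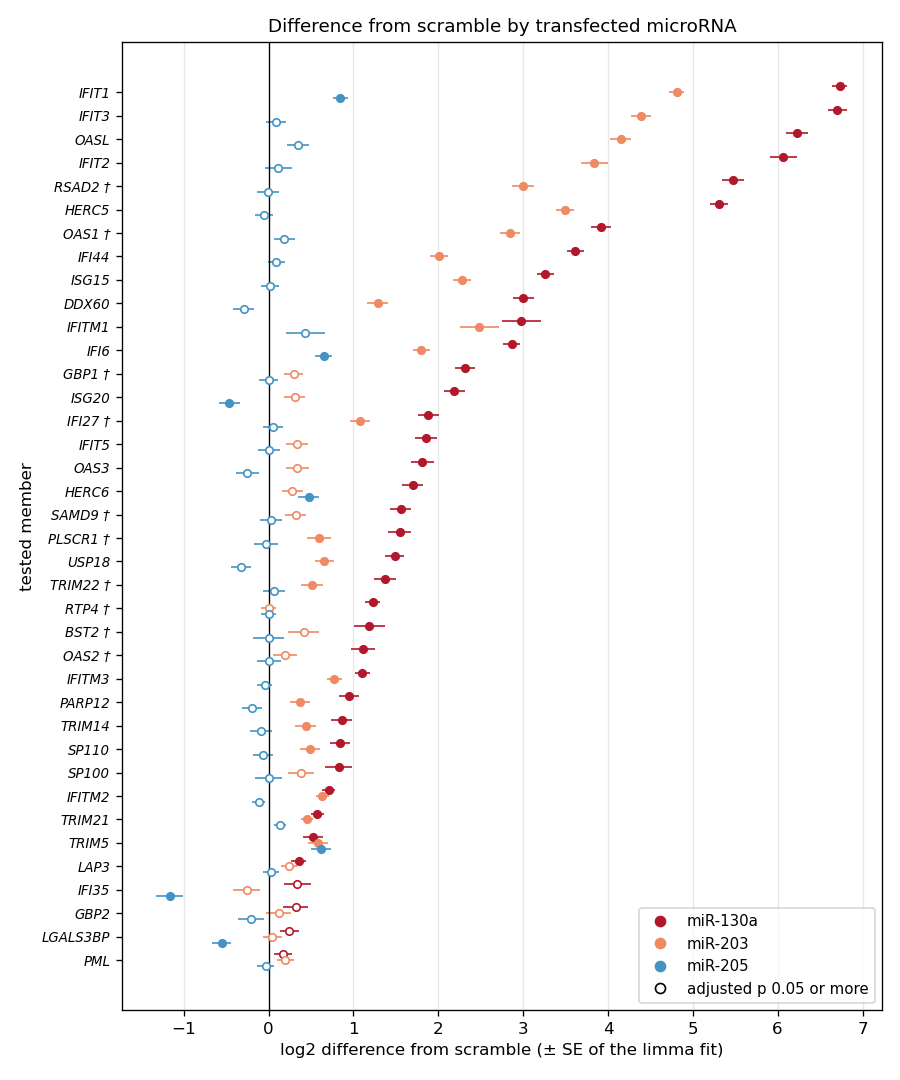
Log2 difference from scramble (horizontal axis) of the 38 tested members, with 1 point for each microRNA, bars of ± SE of the limma fit, filled points for adjusted p under 0.05 and daggers for members dim in all scramble arrays, whose fitted difference is not a fold. The miR-130a points reach 6.73 for IFIT1, the miR-203 points lie between those and 0 for the upper genes, and the miR-205 points stay between -1.16 and 0.85.

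The membrane proteins of the list act where viruses enter or leave the cell. IFITM1, IFITM2 and IFITM3 hinder fusion of viral and cell membranes, and their genes form a cluster on chromosome 11. IFITM1 read 5.68, 5.80 and 6.34 with miR-130a, 4.94, 5.74 and 5.68 with miR-203, 3.22, 3.46 and 3.52 with miR-205, and 3.13, 2.54 and 3.22 with scramble. It was higher by 2.98 ± 0.23 with miR-130a and by 2.49 ± 0.23 with miR-203, and the 2 microRNA groups overlapped. IFITM3 was higher by 1.11 ± 0.09 and 0.78 ± 0.09, and IFITM2 by 0.71 ± 0.08 and 0.63 ± 0.08, for the same 2 microRNAs in that order. Their values span 7.05 to 9.08 over all 12 arrays, and both were read by probe sets marked as open to cross-hybridisation, so the 2 genes may share signal. The miR-205 differences of IFITM2 and IFITM3 were -0.12 and -0.04 and did not pass. BST2, or tetherin, which holds budding virus on the cell surface, and PLSCR1, which blocks entry of some viruses, were dim in scramble arrays. They were at least 1.74-fold and at least 2.28-fold higher with miR-130a. With miR-203, PLSCR1 was at least 1.18-fold higher (adjusted p = 0.0051) and BST2 did not pass (adjusted p = 0.091). The second PLSCR1 probe set gave smaller differences, 0.74 for miR-130a and 0.13 for miR-203, against 1.54 and 0.60 for the one used.

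The next members are TRIM proteins, nuclear body proteins and guanylate-binding proteins. TRIM5, which binds incoming retroviral capsids, was called higher with all 3 microRNAs, as were IFIT1 and IFI6. It read 5.59, 5.58 and 5.67 with miR-130a, 5.58, 5.65 and 5.80 with miR-203, 5.62, 5.63 and 5.89 with miR-205, and 5.23, 5.25 and 4.79 with scramble. The 3 microRNA groups overlapped each other and lay above all scramble arrays, by 0.52 ± 0.12, 0.59 ± 0.12 and 0.62 ± 0.12 in the same order. TRIM22 lies within 100 kb of TRIM5 on chromosome 11, with 3 coding genes between. It was dim in scramble arrays and at least 2.01-fold higher with miR-130a and at least 1.11-fold higher with miR-203. The fitted miR-203 minus scramble difference of TRIM22 was 0.51, and it was 0.34 without miR-203 replicate 3. TRIM14, an adaptor of the RNA-sensing pathway, was higher by 0.86 ± 0.13 with miR-130a and by 0.44 ± 0.13 with miR-203. TRIM21, an antibody receptor inside the cell, was higher by 0.58 ± 0.07 with miR-130a and by 0.45 ± 0.07 with miR-203. The miR-203 call of TRIM14 was lost without any 1 of miR-203 replicate 2, miR-203 replicate 3 and scramble replicate 3 (adjusted p between 0.055 and 0.058) and with no filter on dim genes (0.057).

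Of the nuclear body genes, SP110 was higher with miR-130a (0.84 ± 0.12) and miR-203 (0.49 ± 0.12), and SP100, which restricts incoming viral DNA, only passed with miR-130a (0.83 ± 0.16). PML, the scaffold of these bodies, read 3.41, 3.73 and 3.57 with miR-130a, 3.79, 3.59 and 3.41 with miR-203, 3.26, 3.43 and 3.41 with miR-205, and 3.41, 3.38 and 3.41 with scramble. It passed no comparison, and all groups overlapped, but its miR-203 minus scramble difference was 0.29 without miR-203 replicate 3 (adjusted p = 0.046). The guanylate-binding proteins coat the vacuoles of intracellular microbes and are best known as targets of interferon gamma. GBP1 read 4.94, 4.95 and 4.66 with miR-130a, 3.02, 2.89 and 2.58 with miR-203, 2.49, 2.59 and 2.53 with miR-205, and 2.49, 2.42 and 2.70 with scramble, so it was at least 4.25-fold higher with miR-130a and did not pass with miR-203 (adjusted p = 0.065). Its second probe set, also dim in scramble arrays, gave a miR-203 difference of 0.70 against 0.29 for the one used. GBP2, beside it on chromosome 1, did not pass against scramble with any microRNA.

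The remaining members are induced genes with less settled or more varied roles. IFI6, a mitochondrial and endoplasmic reticulum protein that inhibits flavivirus replication, read 8.32, 8.60 and 8.49 with miR-130a, 7.31, 7.56 and 7.34 with miR-203, 6.15, 6.28 and 6.34 with miR-205, and 5.47, 5.64 and 5.71 with scramble. Like IFIT1, it had 4 groups without overlap, in the order miR-130a, miR-203, miR-205 and scramble. Its differences from scramble were 2.87 ± 0.10 with miR-130a, 1.80 ± 0.10 with miR-203 and 0.65 ± 0.10 with miR-205. IFI44 read 6.78, 7.06 and 6.74 with miR-130a, 5.39, 5.09 and 5.26 with miR-203, 3.27, 3.40 and 3.34 with miR-205, and 3.13, 3.35 and 3.24 with scramble. That is 3.62 ± 0.10 higher with miR-130a and 2.01 ± 0.10 higher with miR-203, while a second, dimmer IFI44 probe set gave 1.04 and 0.06. IFI44L, its neighbour on chromosome 1, was not tested and read 2.76, 3.10 and 2.45 with miR-130a, 2.52, 2.38 and 2.85 with miR-203, and 2.36 on every miR-205 and scramble array. IFI27 read 4.10, 4.51 and 4.16 with miR-130a and 3.18, 3.60 and 3.56 with miR-203, and it was dim in the miR-205 and scramble arrays. It was at least 2.81-fold and at least 1.61-fold higher than scramble with those 2 microRNAs. RTP4, which limits flavivirus replication, was bright with miR-130a alone, at 3.40, 3.83 and 3.53, and sat at 2.36 on the other 9 arrays, so it was at least 1.77-fold higher than scramble. The equal values at the floor narrow its measured spread.

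IFI35 and LGALS3BP were not called against scramble with miR-130a or miR-203, and both were lower with miR-205. IFI35, a partner of NMI, read 4.49, 4.56 and 4.17 with miR-130a, 4.09, 3.79 and 3.55 with miR-203, 2.94, 2.65 and 3.13 with miR-205, and 3.91, 4.29 and 4.01 with scramble. All miR-205 arrays lay below all other arrays, and the difference from scramble was -1.16 ± 0.16 (adjusted p = 1.5e-04). LGALS3BP, a secreted glycoprotein that binds galectins, read 4.75, 5.23 and 5.08 with miR-130a, 4.77, 4.84 and 4.84 with miR-203, 4.07, 4.35 and 4.24 with miR-205, and 4.84, 4.74 and 4.74 with scramble. Its miR-205 difference was -0.55 ± 0.11 (adjusted p = 0.0022). Its miR-130a difference of 0.25 ± 0.11 was 0.38 and called without miR-130a replicate 1 (adjusted p = 0.015), and called with array weights (0.30, adjusted p = 0.047). LAP3, a leucine aminopeptidase, was higher with miR-130a by 0.36 ± 0.09 (adjusted p = 0.012), a call that was lost without scramble replicate 3 (0.29, adjusted p = 0.057), and with miR-203 it stood at 0.24 ± 0.09 (adjusted p = 0.054). That miR-203 difference passed under 9 alternatives, with adjusted p between 0.0085 and 0.048. NMI, XAF1, IFI16 and LAMP3 were not tested. Of these, NMI read 2.36, 2.46 and 3.03 with miR-130a, and XAF1, IFI16 and LAMP3 were above the array median on no array.

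With miR-205, then, the members called higher were IFIT1, IFI6, TRIM5 and HERC6, and those called lower were IFI35, LGALS3BP and ISG20. They are 10.5% and 7.89% of the 38 tested members. Of all tested genes, 11.3% were called higher and 14.8% lower, so the members' shares lay near or below that background. The largest called difference in size was that of IFI35, and no member was 2-fold higher with miR-205 than with scramble. For 31 members the test did not pass, which does not show that they were alike. For ISG15, a bright member, the difference of 0.02 had a standard error of 0.10.

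**Figure D3:**
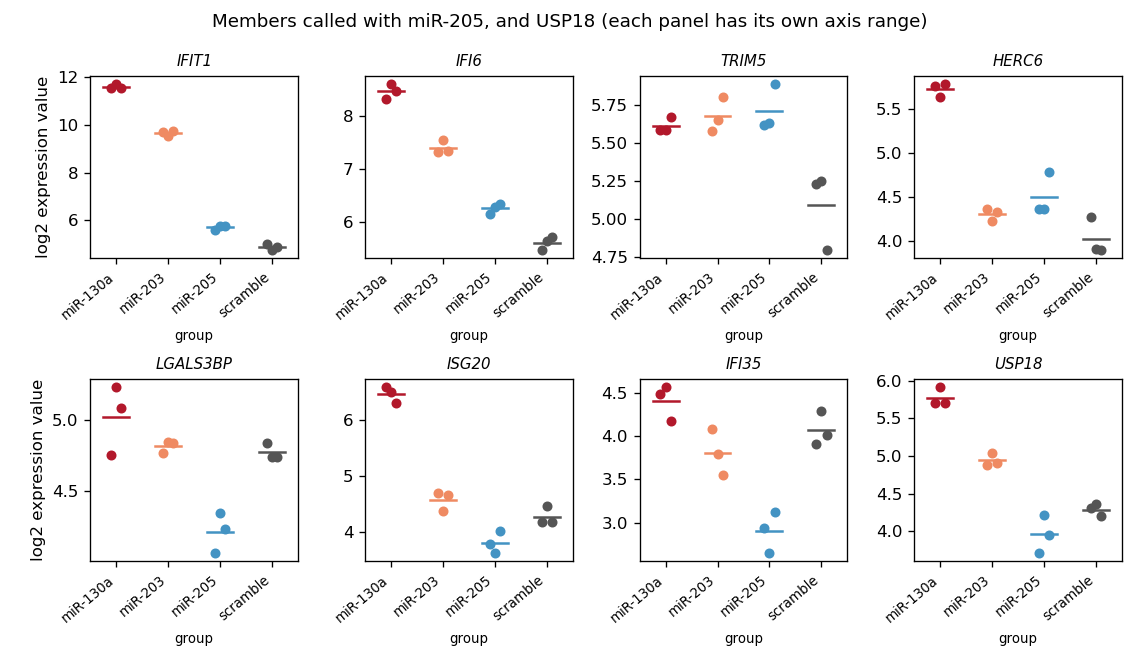
Log2 expression values of the 7 members called with miR-205 against scramble, and of USP18, on each array (points) with group means (lines), with the 3 microRNAs from left to right and scramble last, each panel with its own vertical range. IFIT1 and IFI6 step down through the 4 groups, the TRIM5 microRNA groups lie together above scramble, and the miR-205 points of IFI35 lie below all others.

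The difference between miR-130a and miR-203 was tested directly. Of the 38 tested members, 30 were higher with miR-130a than with miR-203 and 0 were lower, where 21.1% of all tested genes were called higher and 20.1% lower. Of the 24 members above the array median on all 12 arrays, 18 were higher, a count again without a share for all genes as bright. The median difference over the 46 named members was 0.79, and that of all tested genes was -0.02. The largest were those of RSAD2 (2.48 ± 0.13), IFIT3 (2.32 ± 0.12), IFIT2 (2.23 ± 0.16), OASL (2.08 ± 0.13) and GBP1 (2.02 ± 0.12), all in favour of miR-130a, and the first 4 were among the 20 largest increases of all tested genes. The GBP1 probe set used is marked as open to cross-hybridisation, with means of 4.85 with miR-130a and 2.83 with miR-203. The second GBP1 probe set lay closer together, at 4.27 and 3.13.

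The members fell into a few combinations of the 3 calls. For 19 members, among them IFIT1, IFIT2, IFIT3, OAS1, OASL, RSAD2, HERC5, ISG15, DDX60 and IFI6, all 3 calls were made, so that miR-130a was above miR-203 and miR-203 above scramble. For 10 members, miR-130a was above both miR-203 and scramble and miR-203 did not pass against scramble. These were IFIT5, OAS2, OAS3, ISG20, HERC6, SAMD9, GBP1, BST2, RTP4 and SP100. Of the 10, OAS2, SAMD9, GBP1, BST2 and RTP4 were dim in scramble arrays and entered the test mainly or only through miR-130a. The filter thus had a part in their pattern, and the same 3 calls were not counted over all tested genes. The class is not firm, since for all 10 but OAS2 and RTP4 the miR-203 minus scramble difference passed under 1 or more alternatives. For GBP1 it was 0.42 without miR-203 replicate 3 (adjusted p = 0.011), for BST2 0.59 without the same array (adjusted p = 0.024), and for HERC6 0.40 without scramble replicate 1 (adjusted p = 0.021). IFITM1, IFITM2, TRIM21 and TRIM5 were higher than scramble with both microRNAs, and their miR-130a minus miR-203 differences were 0.49 (95% interval -0.01 to 0.99), 0.08 (-0.09 to 0.24), 0.12 (-0.03 to 0.28) and -0.06 (-0.32 to 0.19). For IFITM2 the interval leaves at most 0.24 in favour of miR-130a. BST2 was called between the 2 microRNAs although its arrays overlapped, at 3.90, 3.55 and 3.23 with miR-130a and 2.68, 3.25 and 2.44 with miR-203. The calls of SP100, SP110 and TRIM14 between the 2 microRNAs were each lost without several single arrays, with adjusted p up to 0.13, 0.12 and 0.069. For SP100 these were miR-130a replicates 1 and 2 and every miR-203 replicate, for SP110 miR-130a replicates 1 and 2 and miR-203 replicate 2, and for TRIM14 miR-130a replicates 1 and 2 and miR-203 replicate 1. That of IFITM3 was lost without miR-130a replicate 2 (adjusted p = 0.054).

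**Figure D4:**
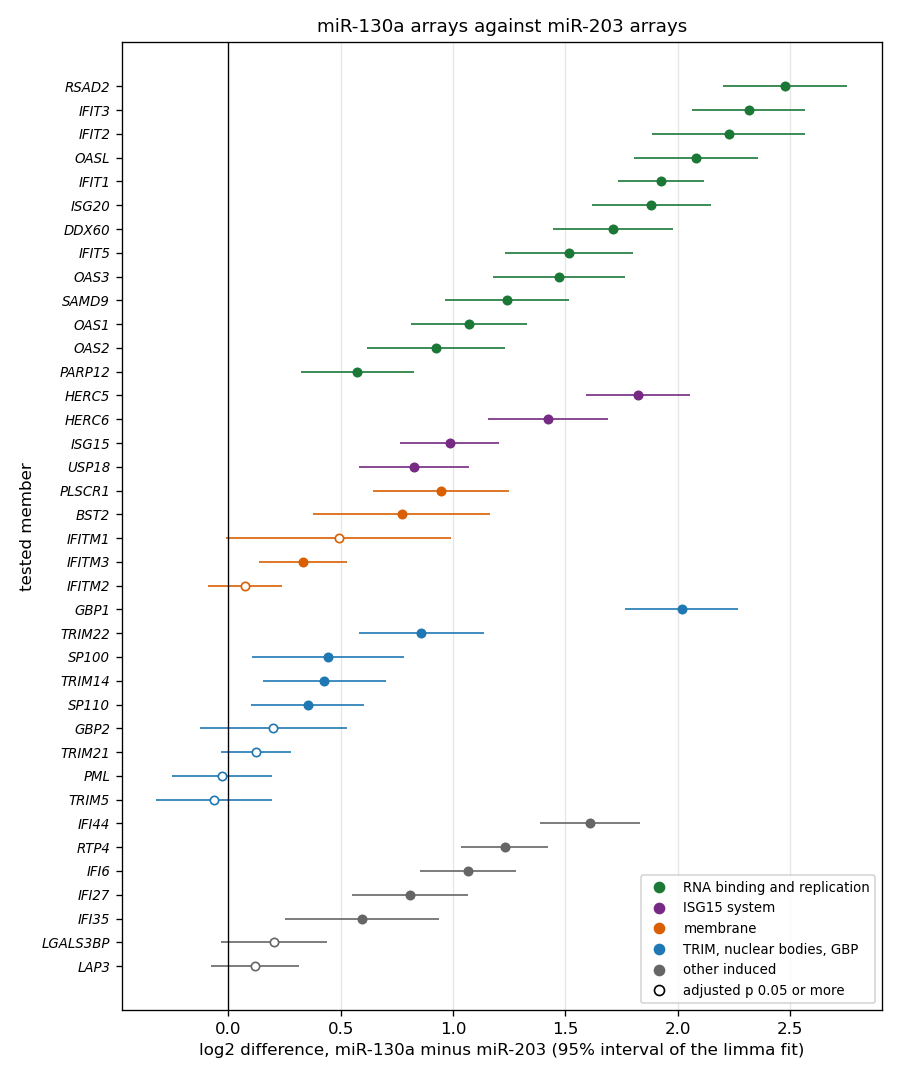
Log2 difference miR-130a minus miR-203 (horizontal axis) with its 95% interval from the limma fit for the 38 tested members, coloured by role and filled where the adjusted p was under 0.05. The green points of the RNA-binding and replication effectors reach 2.48 for RSAD2, while IFITM2, TRIM5 and PML lie near 0.

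Set against miR-205, miR-130a had 36 of 38 members higher and 0 lower, where 18.2% of all tested genes were called higher and 15.4% lower, and miR-203 had 26 higher and 0 lower, where 21% and 16.9% of all tested genes were. Over the 24 members above the array median on all 12 arrays, which could be tested without help from a bright group, 22 were higher with miR-130a and 18 with miR-203. The share among all genes as bright was not counted here either. IFIT1 was higher by 5.89 ± 0.09 with miR-130a and by 3.96 ± 0.09 with miR-203 than with miR-205. IFI35, which was called against scramble with neither, was higher than miR-205 with both (1.50 ± 0.16 and 0.90 ± 0.16). LGALS3BP did the same (0.80 ± 0.11 and 0.60 ± 0.11). PML and TRIM5 were the 2 members that did not pass between miR-130a and miR-205. GBP2 passed there (0.53 ± 0.15, adjusted p = 0.016) but not without miR-130a replicate 1 (0.41, adjusted p = 0.078) or miR-205 replicate 3 (0.50, adjusted p = 0.055), and LAP3 passed but not without miR-205 replicate 1 (0.25, adjusted p = 0.066).

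The genes upstream of the effectors and their other targets were taken from a separate list of 58 genes, of which 49 were named and 36 tested. Against scramble, 20 were higher and 0 lower with miR-130a, 14 higher and 3 lower with miR-203, and 3 higher and 4 lower with miR-205. The shares of all tested genes were 12% and 11.6%, 17.3% and 18.9%, and 11.3% and 14.8% for the same counts, and the pathway's miR-205 shares of 8.33% and 11.1% lay near that background. Among the sensors, RIGI, which recognises RNA with a triphosphate end, read 7.93, 7.91 and 7.80 with miR-130a, 5.68, 5.10 and 5.47 with miR-203, 2.66, 3.03 and 2.77 with miR-205, and 2.71, 2.66 and 2.66 with scramble. IFIH1, which recognises long double-stranded RNA, was higher by 3.03 with miR-130a and by 2.09 with miR-203. EIF2AK2, the kinase PKR that halts translation on double-stranded RNA, was higher with miR-130a (1.26) and did not pass with miR-203 (0.18, adjusted p = 0.22). The adaptor MAVS and the kinase TBK1 did not pass with miR-130a (0.19 and 0.04). MAVS read 5.95, 5.78 and 5.97 with miR-130a and 6.02, 5.87 and 5.92 with miR-203. It read 5.94, 5.95 and 5.91 with miR-205 and 5.68, 5.68 and 5.76 with scramble, so each microRNA group lay above all scramble arrays.

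The transcript of interferon beta itself, IFNB1, was seen above the array median with miR-130a alone. It read 5.28, 5.06 and 4.87 with miR-130a, 2.74, 2.47 and 2.49 with miR-203, 2.37, 2.36 and 2.36 with miR-205, and 2.36, 2.37 and 2.37 with scramble. IFNB1 entered the test only through its miR-130a arrays. Its values near the floor with miR-205 and scramble narrow the measured spread behind the p-values that follow. IFNB1 was at least 4.95-fold higher with miR-130a than with scramble (adjusted p = 3.9e-10) and at least 4.94-fold higher than with miR-203 (adjusted p = 3.7e-09). With miR-203 it did not pass against scramble (0.20, adjusted p = 0.14). IFNA1 and IFNG were at 2.36 on all 12 arrays, and the receptor gene IFNAR1 was above the median on no array. JAK1 was above it on 2 of 12 arrays and was not tested. JAK2 was higher with miR-130a (1.18, adjusted p = 0.0013) and did not pass with miR-203 (0.17).

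Of the transcription factors, IRF9, a DNA-binding factor of the interferon response, read 5.89, 5.96 and 5.82 with miR-130a, 4.38, 4.23 and 4.41 with miR-203, 3.04, 3.14 and 3.39 with miR-205, and 3.26, 3.01 and 3.32 with scramble. It had the same order as most members, with differences of 2.69 and 1.14 and a value of -0.01 with miR-205. IRF7, which amplifies the interferon response, was higher with miR-130a (1.30), did not pass with miR-203 (0.25, adjusted p = 0.068), and was lower with miR-205 (-0.49, adjusted p = 0.0029), as ISG20 was. IRF1 was higher with miR-130a (1.10) and miR-203 (0.52). IRF3, which is activated at the protein level, did not pass with miR-130a (-0.10) and was lower with miR-203 (-0.34, adjusted p = 0.024).

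The chemokine genes CXCL10, CXCL11 and CCL5 and the death ligand gene TNFSF10 were dim on all miR-205 and scramble arrays and entered the test through their miR-130a and miR-203 arrays. FAS, a death receptor, was higher by 1.17 with miR-130a and by 0.57 with miR-203. CXCL10, which attracts T cells, read 10.00, 9.96 and 9.89 with miR-130a, 6.28, 6.57 and 6.05 with miR-203, 2.61, 2.67 and 2.76 with miR-205, and 2.36, 2.61 and 2.60 with scramble. Its miR-130a minus miR-203 difference of 3.65, with those of CXCL11 (4.69) and CCL5 (3.51), was larger than that of any member. CXCL9, a chemokine that depends mostly on interferon gamma, was at 2.36 on all 12 arrays. Of 10 tested class I and immunoproteasome genes, 5 were higher with miR-130a, among them TAP1 (0.76) and B2M (0.44), beside 12% of all tested genes. With miR-203, 2 of the 10 were higher, a share of 20% that lay near the 17.3% of all tested genes. With miR-205, 0 were higher and HLA-B (-0.38), HLA-E (-0.38) and HLA-F (-0.34) were lower, with probes that may cross-hybridise within the HLA family. Of all tested genes, 11.3% were called higher and 14.8% lower with miR-205.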

How the data were processed

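Total RNA of 12 LNCaP cultures was measured on arrays of 22277 probe sets. The deposited table holds log2 expression values, 1 column per array, and each column was mapped to its sample by its title. Per the submitters' processing notes the tools were R 2.9.0, RMA and limma. The background method is not stated in the sources used here, and values were taken as deposited. Between 29.63% and 31.61% of an array's probe sets sit at the lowest value. The number of arrays limits the precision, and p-values rest on the spread among the 3 arrays of a group.

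Probe sets with 1 symbol (19070) were kept, those with several (1043) or none (2164) were left out, and each gene was given its probe set of highest mean. A gene above the array's median on at least 3 arrays was tested. Group means were fitted to the 12 arrays together with limma 3.58.1 in R 4.3.3. eBayes moderation used 8 residual and 4.842 prior degrees of freedom, and tests were two-sided, with Benjamini-Hochberg adjustment over 6821 genes and a threshold of 0.05. In a bound, each dim array enters with its median or the gene's value, whichever is higher. An exact test of 3 against 3 arrays cannot give p under 0.1, so none was used. The procedure was tested on simulated data, and the outcome is not given here. Promoters are RefSeq, GRCh38.p14.

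All members are named, and pathway genes are named from a fixed list, with values mostly for those past the threshold. The members and lists were chosen with earlier results of these data known. Alternatives were scaling, the filter, the choice of probe set, the samples in the fit, array weights, the moderation, a replicate block and leaving out each array. Array numbers are shared between groups. Deviations from the group means correlated with r between -0.11 and 0.31 for same-numbered arrays, over 0.1 in 3 of 18 pairs. For arrays of different number, r was over 0.1 in 2 of 36 pairs, and 10 of 12 arrays correlated best with their own number. The labels do not say that a number marks a shared day. The numbers were therefore not taken as pairs in the main fit, and the replicate block was kept as an alternative.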

Additional observations from a re-analysis of the deposited data

How the results depend on the processing

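No result reversed. Members called higher numbered 28 to 35 with miR-130a, 21 to 29 with miR-203 and 3 to 5 with miR-205 against scramble over all alternatives, and 25 to 30 between miR-130a and miR-203. With the replicate block the calls higher against scramble were 34, 25 and 4 for miR-130a, miR-203 and miR-205, and 10 of 12 arrays correlated best with their own number, a hint from the data only. Medians of tested members moved with the filter, which changes which members enter. Without it they were 1.21 (miR-130a minus scramble), 0.40 (miR-203 minus scramble), 0.79 (miR-130a minus miR-203) and 1.23 (miR-130a minus miR-205). With the stricter filter they were 1.87, 0.65, 1.07 and 1.96 in that order, and 0.86 for miR-203 minus miR-205, which was 0.70 with array weights. Without genes of equal values the median was 1.69 for miR-130a minus miR-205. Leaving out 1 array gave 1.43 to 1.60 for miR-130a minus scramble, 0.85 to 1.00 for miR-130a minus miR-203, 1.43 to 1.64 for miR-130a minus miR-205 and 0.61 to 0.70 for miR-203 minus miR-205.

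The few pathway genes called lower moved most, and the cause was not tested. For miR-130a minus scramble there was 1 with quantile scaling, with array weights and with trend and robust moderation, and 0 to 1 without 1 array. For miR-203 minus scramble there was 1 with no filter and 1 with only the 6 arrays, and 1 to 3 without 1 array. For miR-130a minus miR-205 there were 3 with quantile scaling and with the stricter filter, 0 with the probe set of largest variance, 2 with only the 6 arrays, with trend and robust moderation and with the replicate block, 4 with array weights, and 0 to 3 without 1 array. For miR-203 minus miR-205 there were 4 with the mean of probe sets. Pathway genes higher with miR-205 numbered 0 to 4 without 1 array. With the mean of probe sets the miR-130a minus scramble difference was 2.33 for IFI44, 0.58 for OAS2, 0.38 for TRIM14 and 0.33 for SP100. Likewise the miR-203 minus scramble difference was 1.03 for IFI44 and 0.36 for PLSCR1. That of SP110 was 0.85 with the probe set of largest variance, and the miR-130a minus miR-203 difference of BST2 was 0.45 with array weights. Calls were gained under some alternatives for OASL and USP18 with miR-205 against scramble (adjusted p from 0.041 and 0.0066), OAS3 and PARP12 likewise, for LGALS3BP with miR-130a, and for LAP3, IFIT5, OAS3, BST2, GBP1, SP100, SAMD9, ISG20, HERC6 and PML with miR-203.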
